A study of Mus musculus with 10 samples.

Results

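The genes described here encode the non-collagen proteins of the cartilage matrix, with the large proteoglycan aggrecan at their centre. They are Acan, Hapln1, Comp, Matn1, Matn3, Matn4, Chad, Snorc, Cnmd and Ucma, chosen by name from the count table, 10 genes of the 25239 that it holds. RNA from calvarial sutures, the seams of fibrous tissue where skull bones meet and grow, was sequenced from 2 sorted cell populations of mice at postnatal day 7. The populations are called DDR2-plus, after a receptor that binds collagen, and PSC, which the labels do not spell out. Each has 5 libraries, numbered 1 to 5, and same-numbered libraries of both groups share a title stem. Every library carries the genotype label WT, while the protocol shared by both groups names Ctsk-Cre mice, in which the promoter of cathepsin K drives the Cre recombinase, and no other allele or treatment is given. How the gates were set, and which of the 5 animals stated gave which library, is not given in the sources used here, so p-values measure the spread between these libraries, which may be technical.

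Cartilage resists compression because aggrecan, a protein core that carries many chondroitin sulfate chains, draws water into the tissue. Many aggrecan molecules sit along a strand of hyaluronan, and link protein, the product of Hapln1, clamps each one to it. Matrilins, COMP and chondroadherin join this gel to the collagen fibrils and to cell surfaces. The same molecules are made in the growth plate and in permanent cartilage by chondrocytes, under the control of the transcription factor SOX9, whereas the vault of the skull forms mostly without a cartilage model.

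The libraries held between 43419129 and 62021992 counts. Levels are given as CPM, counts scaled to library size with TMM factors and to 1000000 reads, and differences as log2 fold changes of DDR2-plus over PSC from the quasi-likelihood test of edgeR, called at an adjusted p under 0.05 over all 15416 genes tested. By this rule 20.1% were higher and 19.0% lower in DDR2-plus. The labels call the cells calvarial stem cells. Of the 12 markers of suture and periosteal stem cells listed, none was at 0 in either group, 3 rose and 5 fell in DDR2-plus. Ddr2 itself was lower in the population named for it, at 112 ± 3.56 CPM against 152 ± 10.7 CPM (SD, n = 5 each; edgeR adjusted p = 0.000165). Marker lists of other cell types also moved with the groups. The summed level of 7 neuron markers was between 39.1 and 134 CPM in DDR2-plus and between 6.78 and 12.8 CPM in PSC, with 6 of 7 called higher. For 6 pineal and photoreceptor markers the sums were 136 to 211 and 4.37 to 7.52 CPM, with 5 called higher. Aanat and Cdhr1 were at 0 in PSC. Asmt was not called and held most of the PSC sum, at 5.86 ± 1.14 CPM against 3.74 ± 0.918 CPM in DDR2-plus (edgeR adjusted p = 0.0588). Sums for 7 markers of glia and Schwann cells were 211 to 702 and 8.08 to 41.2 CPM, with 7 called higher by edgeR and 4 by limma-voom. Among 5 olfactory markers, 5 were called higher by edgeR, 3 by DESeq2 and 1 by limma-voom, with sums of 344 CPM in DDR2-plus 5, 7.09 to 25.1 CPM in the other DDR2-plus libraries and at most 0.778 CPM in PSC, where Gfy and Cnga2 were at 0. In the other direction, the summed level of 7 osteoblast markers was 3749 to 7901 CPM in DDR2-plus beside 14069 to 18233 CPM in PSC, with 6 called lower, and that of 6 tendon markers 3213 to 4158 and 4839 to 5698 CPM, with 5 called lower. Fmod, which was called higher, held most of the tendon sum in DDR2-plus, and the other 5 summed to 129.96 to 245 CPM in DDR2-plus against 2471 to 3034 CPM in PSC. The part of these cell types in the results below was not tested. Sums for 5 endothelial markers overlapped, at 21.6 to 37.8 CPM in DDR2-plus beside 17.9 to 40.4 CPM in PSC, with 2 called higher and 2 lower, as did those for 6 blood and immune markers, at 12.5 to 24.95 and 6.74 to 18.2 CPM with 1 called higher, and for 6 muscle markers, at 21.2 to 49.3 and 8.86 to 22.2 CPM with 2 called higher. The count of 2 lower endothelial markers held in 5 of 18 alternative settings, and that of 1 higher blood and immune marker in 9.

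The promoters of 5 of the genes are shown to set the core pair, Acan and Hapln1, beside the matrilins that differed most and least between the populations, Matn1 and Matn4, and beside Chad. Of the 10 genes, 8 had an entry in the table of RefSeq promoters (build GRCm38.p6), each running from 250 bases before to 50 bases after a transcription start, and Matn4 had 2 starts. Sequences are written 5′ to 3′ on the strand of the gene, in lower case, with capitals for any TATAAA, the letters of a TATA box.
Acan, chr7:79052976-79053275, plus strand: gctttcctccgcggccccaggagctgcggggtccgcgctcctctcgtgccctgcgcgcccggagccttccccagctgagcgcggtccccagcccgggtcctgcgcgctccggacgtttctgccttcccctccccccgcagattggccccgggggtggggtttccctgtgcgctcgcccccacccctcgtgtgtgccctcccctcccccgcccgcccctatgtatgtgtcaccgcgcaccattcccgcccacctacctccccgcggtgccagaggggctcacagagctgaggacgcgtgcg
Hapln1, chr13:89540386-89540685, plus strand: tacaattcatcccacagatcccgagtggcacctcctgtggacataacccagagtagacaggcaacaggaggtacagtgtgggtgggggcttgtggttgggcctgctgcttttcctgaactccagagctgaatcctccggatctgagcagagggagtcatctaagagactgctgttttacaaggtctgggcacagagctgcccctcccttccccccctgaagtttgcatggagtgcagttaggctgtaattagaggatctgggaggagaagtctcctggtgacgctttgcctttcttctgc
Matn1, chr4:130944135-130944434, plus strand: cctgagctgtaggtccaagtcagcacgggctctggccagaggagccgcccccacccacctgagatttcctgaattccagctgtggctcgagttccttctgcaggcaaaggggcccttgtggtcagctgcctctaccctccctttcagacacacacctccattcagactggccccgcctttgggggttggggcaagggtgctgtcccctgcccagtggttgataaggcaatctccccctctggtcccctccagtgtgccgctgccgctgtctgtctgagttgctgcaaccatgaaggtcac
Matn4, chr2:164405111-164405410, minus strand: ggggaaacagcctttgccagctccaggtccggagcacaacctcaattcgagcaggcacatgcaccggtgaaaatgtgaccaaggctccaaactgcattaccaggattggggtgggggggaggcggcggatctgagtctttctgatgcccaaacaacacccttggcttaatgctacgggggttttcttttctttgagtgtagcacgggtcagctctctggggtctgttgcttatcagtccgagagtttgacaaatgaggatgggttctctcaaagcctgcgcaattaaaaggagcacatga
Matn4, chr2:164404769-164405068, minus strand: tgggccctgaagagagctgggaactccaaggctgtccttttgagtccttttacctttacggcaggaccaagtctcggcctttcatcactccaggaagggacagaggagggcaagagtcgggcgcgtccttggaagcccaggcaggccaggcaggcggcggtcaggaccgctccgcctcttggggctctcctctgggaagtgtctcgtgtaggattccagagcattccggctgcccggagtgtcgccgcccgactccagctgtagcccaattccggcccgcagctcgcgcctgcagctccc
Chad, chr11:94564797-94565096, plus strand: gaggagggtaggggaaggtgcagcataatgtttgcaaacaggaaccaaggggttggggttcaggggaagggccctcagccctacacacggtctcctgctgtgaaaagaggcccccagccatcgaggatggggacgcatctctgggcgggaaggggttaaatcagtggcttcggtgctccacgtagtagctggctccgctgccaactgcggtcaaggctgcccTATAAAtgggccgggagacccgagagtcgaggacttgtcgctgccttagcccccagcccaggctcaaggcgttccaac
The TATAAA of Chad began 28 bases before the start, and this motif, on either strand, was in 13.6% of all 32817 promoters of this length. Of the 8 genes, 1 held it. ACAAAG or ACAATG, written forms of the SOX motif, stood on either strand in 28.6% of all promoters and in 0 of the 8, which says only that these letters are not in these windows. The G and C content of these windows was 74% for Acan, 61.0% for Chad, 61.3% for Matn1 and 54.3% for Hapln1.

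All 10 genes were higher in DDR2-plus, from 1.98-fold for Matn4 to 9.50-fold for Matn1. In the same fit 20.1% of all genes tested were called higher. The 5 DDR2-plus libraries stood above the 5 PSC libraries without overlap for each of the 10, a pattern that 15.6% of all genes tested showed in this direction. Of the 10, 9 were at least 2-fold higher, as were 9.94% of the genes tested. The 10 genes and the lists used below were chosen with earlier results of these data known. The shares over all genes are therefore given as background, not as a test. The median log2 fold change was 2.39 over the 10 and 0.04 over all genes tested. Together the 10 genes took 2.50% ± 0.252 of all counts in DDR2-plus and 0.370% ± 0.101 in PSC (SD, n = 5 each). PSC libraries held all of these transcripts, at 10.5% of the DDR2-plus level for Matn1, 50.5% for Matn4 and 15.8% to 20.9% for the other 8. In bulk RNA, fewer cells of a type and less RNA per cell cannot be told apart.

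**Figure D1:**
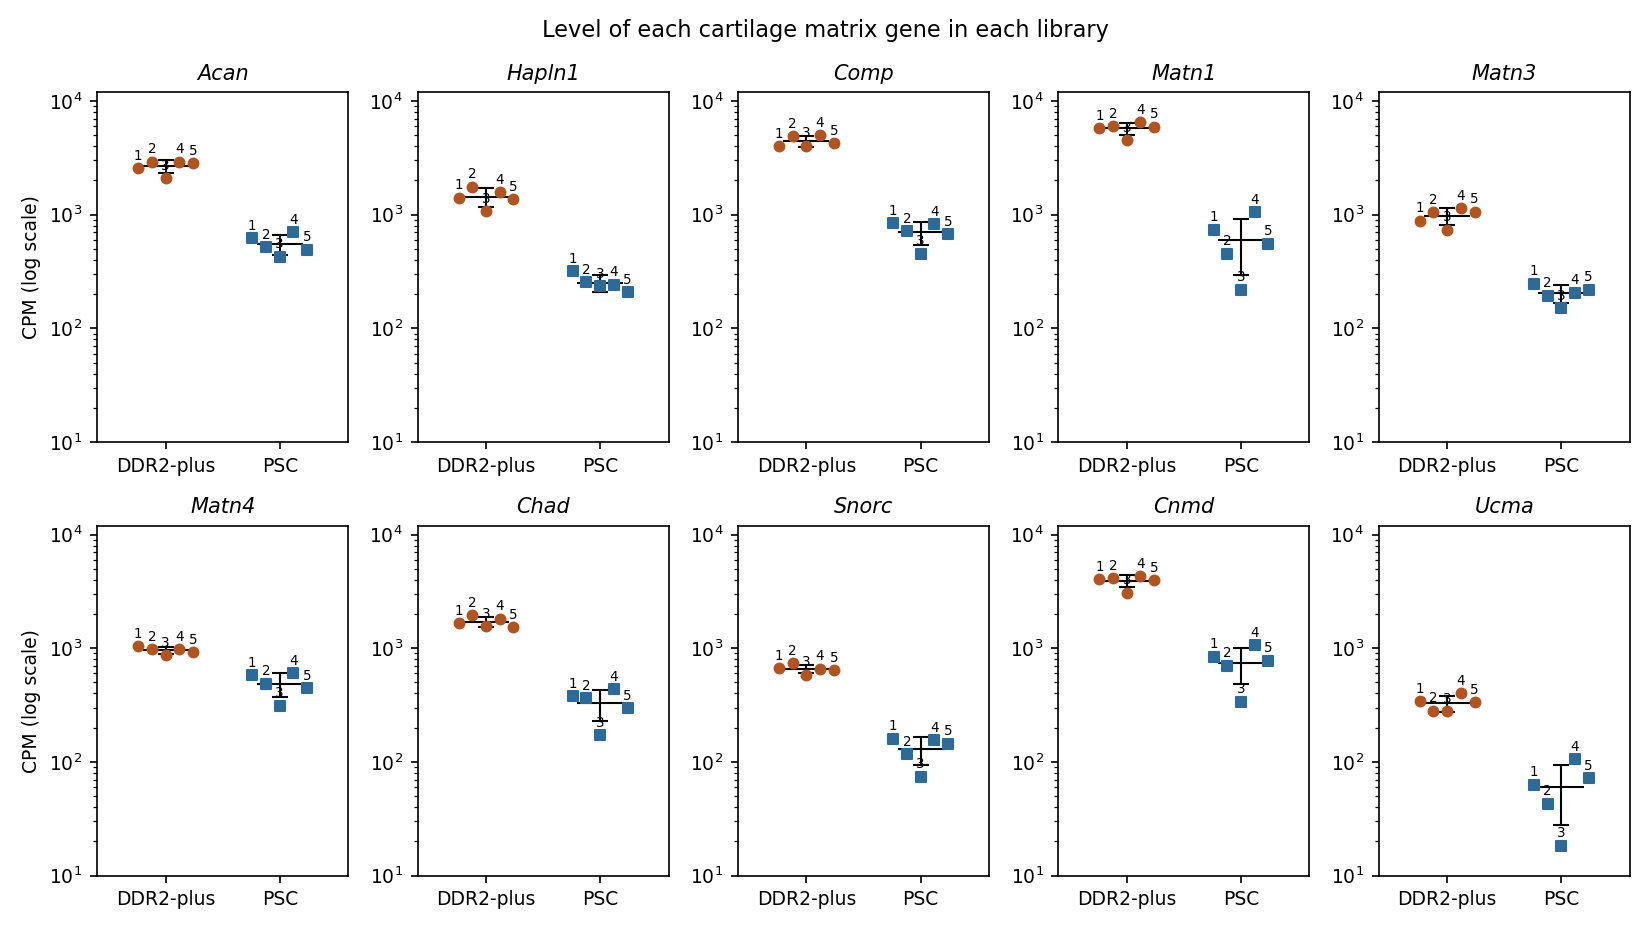
Level of each of the 10 genes in CPM (log axis) in the 5 DDR2-plus libraries (circles) and the 5 PSC libraries (squares), with the library number above each point; the dash and bar give the mean and SD. For each gene the lowest DDR2-plus library lies above the highest PSC library, by 1.45 times for Matn4 and by between 2.62 and 4.77 times for the others.

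Acan (chromosome 7, 79053483 to 79115099, plus strand; mm10 coordinates here and below from GENCODE M21) encodes the aggrecan core protein. It was at 2556, 2929, 2098, 2926 and 2857 CPM in DDR2-plus 1 to 5 and at 619, 520.2, 429, 705 and 493 CPM in PSC 1 to 5. DDR2-plus 3 was the lowest of its group, and still 2.98 times the highest PSC library (log2 fold change 2.27, SE 0.139; edgeR adjusted p = 4.35e-07). Hapln1 (chromosome 13, 89539796 to 89611652, plus strand), for link protein, was at 1416, 1769.8, 1068, 1586 and 1366 CPM in DDR2-plus 1 to 5. Its PSC levels were 318, 254, 236, 242 and 208 CPM, the narrowest spread of the 10 genes in that group, the highest library being 1.53 times the lowest. Between the groups it differed by 2.52 on the log2 scale (SE 0.143; edgeR adjusted p = 2.99e-07), again without overlap.

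The count of Hapln1 over that of Acan within a library needs no scaling between libraries. It lay between 0.478 and 0.604 in DDR2-plus and between 0.343 and 0.550 in PSC, so the groups overlapped (log2 difference 0.23; exact permutation test, two-sided p = 0.143, adjusted p = 0.2 over 7 ratios; n = 5 each). Link protein RNA per aggrecan RNA was therefore not shown to differ; per length of exon it was 0.678 in DDR2-plus and 0.579 in PSC.

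Aggrecan is 1 of 4 hyalectans, the hyaluronan-binding proteoglycans, and each hyalectan gene has a link protein gene as its neighbour. The GENCODE M21 annotation places Hapln3 2 bases from Acan, Hapln1 43659 bases from Vcan, Hapln2 21519 bases from Bcan and Hapln4 2222 bases from Ncan, with 0 protein-coding genes lying wholly between them. Of these 6 genes other than Acan and Hapln1, 5 were tested, of which 1 rose, 2 fell and 2 did not pass. Over all genes tested 20.1% were called higher and 19.0% lower. Hapln2 had 0 counts in PSC. In DDR2-plus, Hapln2 was at 1.79 CPM in library 1, at 0.117 CPM in library 4 and at 0 in the others. Library 1 also had the highest sum of glia markers, 702 CPM. Library 3, with Hapln2 at 0, had a glia sum of 487 CPM, above the 375 CPM of library 4. The part of glia in the level of Hapln2 was not tested. Beside Acan, Hapln3 was at 3.94 ± 0.990 CPM in DDR2-plus beside 2.24 ± 0.815 CPM in PSC and did not pass the test (log2 fold change 0.81, SE 0.340; edgeR adjusted p = 0.0772). It was called higher in 3 of 18 alternative settings, by DESeq2 (adjusted p = 0.0396), by limma-voom (adjusted p = 0.0480) and with library size in place of TMM (edgeR adjusted p = 0.0210), the range over the 18 being 0.0210 to 0.230. Vcan, for versican of loose connective tissue, ran against its neighbour Hapln1. It was at 44.4, 52.8, 81.7, 49.1 and 64.4 CPM in DDR2-plus 1 to 5 and at 114, 151.4, 151.5, 129 and 118 CPM in PSC 1 to 5, with no overlap (log2 fold change -1.18, SE 0.156; edgeR adjusted p = 7.02e-05). The count of Acan over that of Vcan was 25.7 to 59.6 in DDR2-plus and 2.83 to 5.47 in PSC, an 11.2-fold difference in the ratio. Acan and Vcan had each separated the groups, in opposite directions, so the ratio had to separate them too. Its p-value was thus fixed at the lowest that 5 against 5 libraries allow and is no further evidence (exact permutation test, two-sided p = 0.00794, adjusted p = 0.0139 over 7 ratios).

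The other hyalectans are known from brain and stood low in both populations. Ncan, for neurocan, was at 10.5, 1.73, 3.86, 10.1 and 3.54 CPM in DDR2-plus 1 to 5. Its PSC level was 1.01 CPM in PSC 2 and at most 0.0996 CPM in the other 4 libraries (log2 fold change 4.59, SE 1.03; edgeR adjusted p = 0.00341). Leaving out PSC 2 moved this to 6.81 (edgeR adjusted p = 0.000105). The neuron and glia markers moved in the same direction, and their part in the level of Ncan was not tested. Bcan, for brevican, was at 13.8 ± 5.51 in the first and 8.62 ± 2.82 CPM in the second population without a call (edgeR adjusted p = 0.104), and passed as higher without DDR2-plus 2 (edgeR adjusted p = 0.0258) and with library size in place of TMM (edgeR adjusted p = 0.0253), the range over 18 alternative settings being 0.0253 to 0.335. Hapln4 was lower in DDR2-plus, at 3.33 ± 2.27 against 11.8 ± 3.77 CPM (edgeR adjusted p = 0.00418), although DDR2-plus 3, at 7.02 CPM, lay above PSC 3, at 6.65 CPM.

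**Figure D2:**
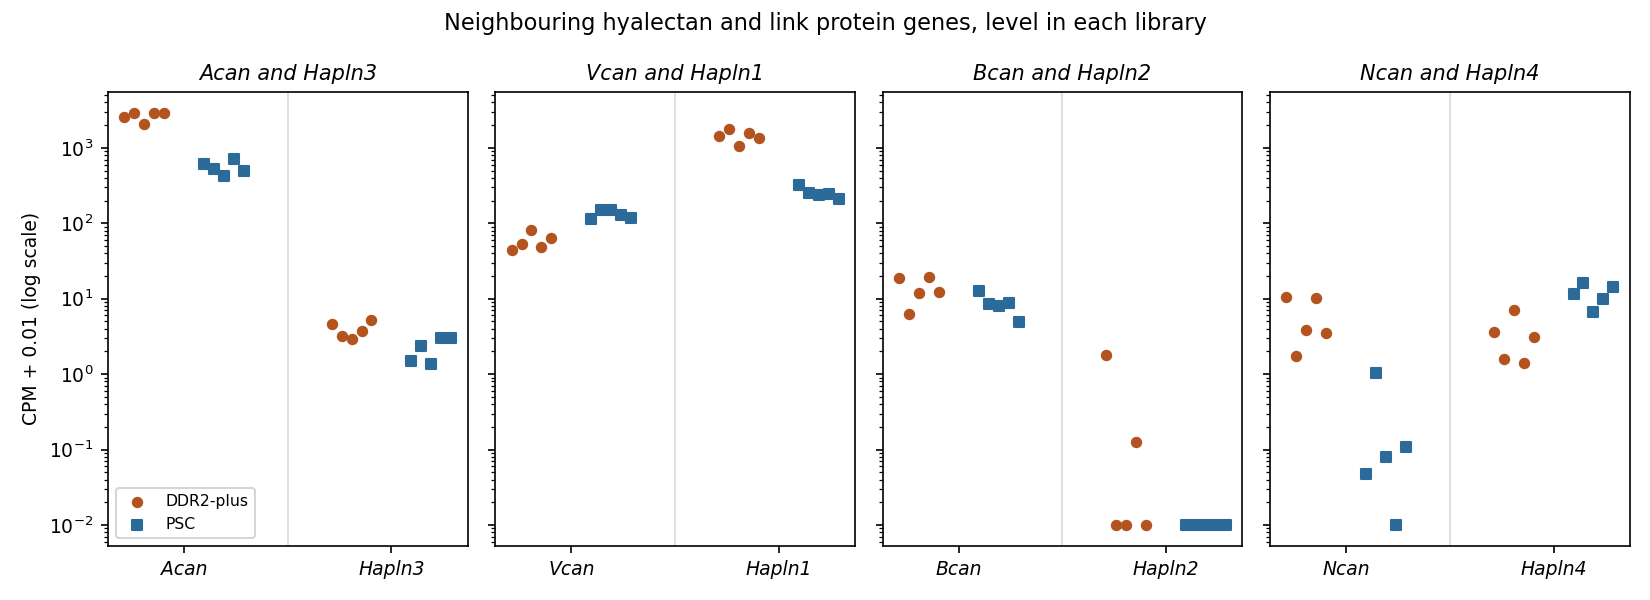
Level in CPM plus 0.01 (log axis) of the 4 hyalectan genes, each beside the link protein gene next to it in the genome, in each DDR2-plus (circles) and PSC (squares) library; points on the lowest line are counts of 0, as for Hapln2 in all PSC libraries. Acan and Hapln1 are higher in DDR2-plus, while Vcan, the neighbour of Hapln1, is higher in PSC.

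Hyaluronan, the strand that aggrecan is bound to, is made at the cell surface by the synthases. Of 9 genes for its synthesis, binding and breakdown, 4 rose, 2 fell and 3 did not pass. Over all genes tested 20.1% rose and 19.0% fell. Has2, the synthase gene that cartilage depends on, was at 29.4 ± 7.56 CPM in DDR2-plus beside 11.7 ± 2.44 CPM in PSC, 2.51-fold higher (SD, n = 5 each; edgeR adjusted p = 0.000191). Cd44, for the cell surface receptor of hyaluronan, was 4.51-fold lower, at 40.0 ± 13.2 against 181 ± 15.2 CPM (edgeR adjusted p = 4.34e-06). Has1 was called 1.62-fold lower (edgeR adjusted p = 0.0281), a call that 6 of 18 alternative settings did not keep, with adjusted p over all 18 between 0.0126 and 0.141. The settings that ended it were library size in place of TMM, the set of replicates 1, 2 and 4, and the fits without DDR2-plus 1, DDR2-plus 3, PSC 1 or PSC 2. Hmmr, which is also a gene of mitosis, was 2.17-fold higher, and Cemip2, for a hyaluronidase of the cell surface, 1.64-fold higher (edgeR adjusted p = 0.00207 and 0.000196).

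Matrilins are adaptor proteins that form filaments and bind aggrecan, COMP and collagens, and the 3 genes of the family described here held both ends of the range of fold changes. Matn1 (chromosome 4, 130944385 to 130955475, plus strand), the cartilage matrix protein, was at 5755, 6006, 4510.0, 6477 and 5928 CPM in DDR2-plus 1 to 5. Its PSC levels were 741, 456, 219.7, 1047 and 556 CPM, so PSC 4 had 4.77 times the level of PSC 3, while the DDR2-plus libraries lay within 1.44 times of each other. The log2 fold change of 3.25 was the largest of the 10 and, with that of Ucma, among the least precise (SE 0.326; edgeR adjusted p = 8.12e-06). Matn3 (chromosome 12, 8947929 to 8972028, plus strand), altered in multiple epiphyseal dysplasia, was at 741 to 1135 CPM in DDR2-plus beside 151 to 248 CPM in PSC (log2 fold change 2.26, SE 0.143; edgeR adjusted p = 4.55e-07).

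Matn4 (chromosome 2, 164389393 to 164405160, minus strand) is the matrilin known from tissues beyond cartilage as well. It was at 1045, 984, 873, 983 and 924 CPM in DDR2-plus 1 to 5 and at 576, 487, 313, 604 and 447 CPM in PSC 1 to 5. The groups did not overlap, but the difference, 0.99 on the log2 scale (SE 0.145; edgeR adjusted p = 0.000167), was the smallest of the 10. Of its exonic bases, 2.88% lie on exons of Rbpjl as well, and reads there cannot be assigned to either gene without strand. Matn2, the more broadly expressed member of the family, was at 331 ± 19.8 CPM in DDR2-plus beside 342 ± 44.3 CPM in PSC and did not pass (edgeR adjusted p = 0.714).

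The count of Matn1 over that of Matn3, for 2 matrilins that assemble together in cartilage, was 6.49, 5.67, 6.09, 5.71 and 5.59 in DDR2-plus 1 to 5. In PSC 1 to 5 it was 2.99, 2.35, 1.45, 5.09 and 2.54. No library overlapped, and the ratio was 2.22-fold higher in DDR2-plus (exact permutation test, two-sided p = 0.00794, adjusted p = 0.0139 over 7 ratios; n = 5 each). Per length of exon, Matn1 was 8.89 times as abundant as Matn3 in DDR2-plus and 3.997 times in PSC.

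COMP and chondroadherin bind collagen fibrils, and both are also known from tendon. Comp (chromosome 8, 70373558 to 70382066, plus strand), a pentamer of the thrombospondin family, was at 4006, 4939.9, 4043, 4974 and 4233 CPM in DDR2-plus 1 to 5. In PSC 1 to 5 it was at 839.8, 715, 454, 829.7 and 673 CPM, with PSC 3 the lowest (log2 fold change 2.66, SE 0.153; edgeR adjusted p = 3.29e-07). Relative to Acan it was higher in DDR2-plus, at 1.48 to 1.93 counts per count of Acan against 1.06 to 1.37 in PSC (1.32-fold; exact permutation test, two-sided p = 0.00794, adjusted p = 0.0139 over 7 ratios; n = 5 each). The other thrombospondin genes split. Thbs1 was 3.07-fold higher in DDR2-plus, Thbs2 4.20-fold and the tendon and muscle gene Thbs4 15.5-fold lower (edgeR adjusted p of 1.26e-06, 2.99e-07 and 2.50e-07), while Thbs3 stood at 313 beside 309.8 CPM (edgeR adjusted p = 0.937; called higher with library size in place of TMM, edgeR adjusted p = 0.0261, range over 18 settings 0.0261 to 0.975).

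Chad (chromosome 11, 94565047 to 94569127, plus strand), for chondroadherin, a leucine-rich protein that also binds integrins, was at 1530.5 to 1957 CPM in DDR2-plus beside 172 to 434 CPM in PSC. PSC 3 was the lowest, and the next lowest PSC library stood at 297 CPM (log2 fold change 2.38, SE 0.200; edgeR adjusted p = 2.18e-06). Its relative Chadl was 5.92-fold higher, at 409 ± 39.2 against 69.1 ± 23.3 CPM (edgeR adjusted p = 1.79e-06).

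The remaining 3 genes encode small proteins of the chondrocyte surface and its matrix. Snorc (chromosome 1, 87470271 to 87475482, plus strand), a transmembrane proteoglycan of chondrocytes, was at 587 to 736 CPM in DDR2-plus beside 74.2 to 160.5 CPM in PSC (log2 fold change 2.33, SE 0.177; edgeR adjusted p = 1.12e-06). Cnmd (chromosome 14, 79637690 to 79662170, minus strand) encodes chondromodulin, an inhibitor of vessel growth and the relative of tenomodulin. It was at 4068, 4151, 3075, 4329 and 3952 CPM in DDR2-plus 1 to 5 and at 845, 700.4, 339, 1057 and 779 CPM in PSC 1 to 5 (log2 fold change 2.40, SE 0.235; edgeR adjusted p = 6.85e-06). PSC 3 was the lowest of its group, and the next lowest stood at 700.4 CPM. The summed level of the tendon markers, tenomodulin among them, ran the other way between the groups, as given above.

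Ucma (chromosome 2, 4976122 to 4985748, plus strand), a secreted protein of young chondrocytes that is rich in gamma-carboxylated glutamate, was the least abundant by CPM. It was at 341, 282, 278, 403 and 337 CPM in DDR2-plus 1 to 5 and at 63.3, 43.0, 18.4, 106 and 71.9 CPM in PSC 1 to 5. PSC 4 was 5.77 times PSC 3, the widest spread of the 10 genes, and the SE of its log2 fold change was the largest of the 10 (2.44, SE 0.345; edgeR adjusted p = 0.000122). The lowest count behind these values was 795, for Ucma in PSC 3. Amplified reads are not independent molecules, so this count does not show how large the counting error was. Neither Ucma nor Cnmd was shown to differ relative to Acan (log2 differences 0.36 and 0.20; exact permutation test, two-sided p = 0.373, adjusted p = 0.373 over 7 ratios, for both).

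Of the 10 genes, 9 varied more among PSC libraries than among DDR2-plus libraries, and Hapln1 varied more in DDR2-plus, 1.66 times from lowest to highest against 1.53 times. The highest library of a group was 1.20 to 1.66 times the lowest in DDR2-plus, with a median of 1.40, and 1.53 to 5.77 times in PSC, with a median of 2.05. Over the genes of at least 10 CPM in a group the same median was 1.32 in DDR2-plus (8831 genes) and 1.41 in PSC (8775 genes). PSC 3 was the lowest of its group for 9 of the 10 genes, the exception being Hapln1, for which PSC 5 was. PSC 4 was the highest for 6 and PSC 1 for the other 4. The share of counts in the 10 genes was 0.219% in PSC 3 and 0.350% to 0.484% in the other PSC libraries. In DDR2-plus, number 3 was likewise the lowest for 8 of the 10, with a share of 2.11% against 2.46% to 2.78%. The low values were not particular to the 10 genes. The summed cartilage collagens were at 14886 CPM in PSC 3, against 22504 to 32466 CPM in the other PSC libraries. In DDR2-plus 3 they were at 99073 CPM, against 118092 to 135202 CPM. Sox9 was also lowest in both, at 128 and 798 CPM, whereas Col10a1 was highest of its group in DDR2-plus 3, at 2136 CPM. The osteoblast sum of DDR2-plus 3 was 7901 CPM, against 3749 to 5915 CPM in the other DDR2-plus libraries, and its pineal sum 211 CPM, against 136 to 147 CPM, and their part in the low values was not tested.

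**Figure D3:**
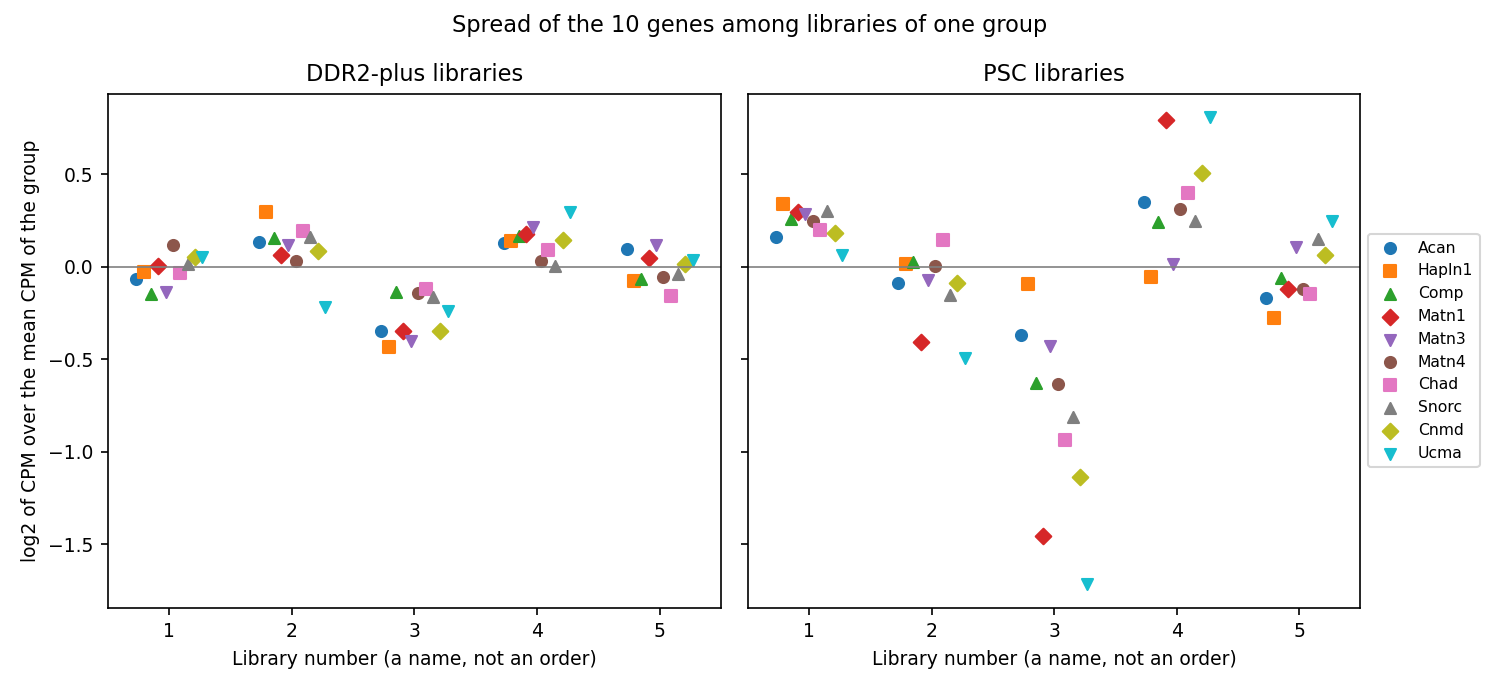
Level of each of the 10 genes in each library relative to the mean of its own group (log2 scale; 0 is the mean), for DDR2-plus at left and PSC at right. In PSC 3 the genes spread widely below the mean, with Ucma and Matn1 lowest and Hapln1 nearest to 0, whereas DDR2-plus libraries keep the 10 genes close together.

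Within PSC 3 the genes did not all lie equally far below the rest of their group. Ucma there was at 18.4 CPM against 43.0 CPM in the next lowest PSC library, Matn1 at 219.7 against 456 CPM and Cnmd at 339 against 700.4 CPM. Acan stood at 429 against 493 CPM and Matn3 at 151 against 194 CPM. The ratio of Ucma to Acan was 0.0430 in PSC 3 and 0.0827 to 0.151 in the other PSC libraries, and the log2 difference of this ratio between the groups fell from 0.36 to 0.07 without PSC 3, that of Cnmd to Acan from 0.20 to 0.02. In the same library the summed endothelial markers were at 40.4 CPM, against 17.9 to 27.6 CPM in the other PSC libraries, and their part in the low values was not tested. Without PSC 3 all 10 genes were still called higher, with log2 fold changes from 0.86 to 3.03.

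**Figure D4:**
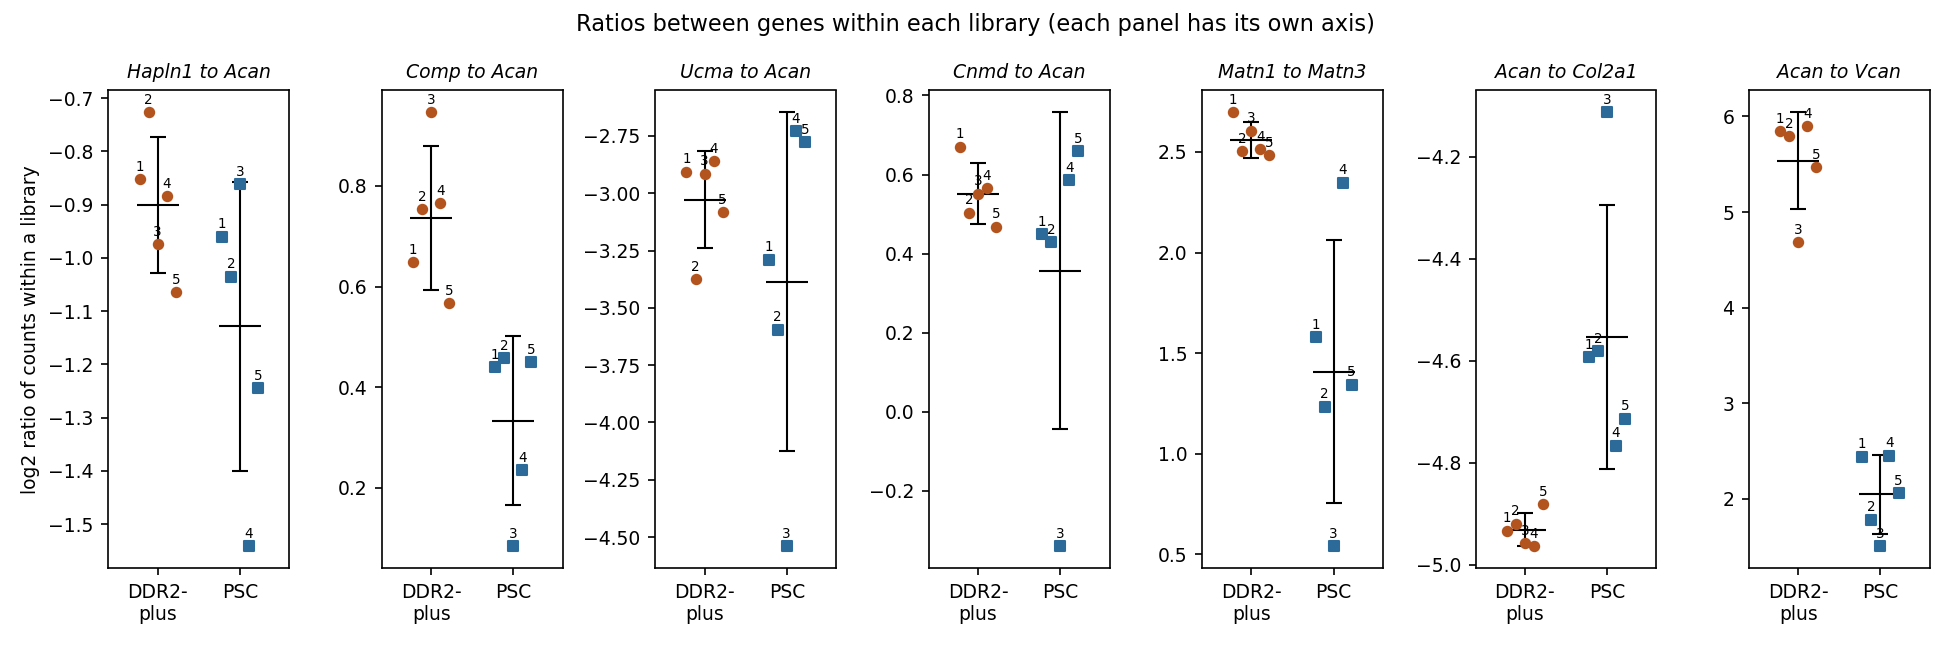
Log2 ratio of the counts of 2 genes within each DDR2-plus (circles) and PSC (squares) library, with library numbers; the dash and bar give the mean and SD, and each panel has its own axis. The groups do not overlap for Comp to Acan, Matn1 to Matn3, Acan to Col2a1 and Acan to Vcan, and overlap for the ratios of Hapln1, Ucma and Cnmd to Acan.

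Levels of different genes were compared per length, as CPM per kilobase of exon, with the exons of all annotated transcripts merged. In DDR2-plus Matn1 led with 2866 ± 367 CPM per kilobase, the 5th highest of 24321 genes with a length, followed by Cnmd with 2124 ± 265, Comp with 1496 ± 162, Chad with 1018 ± 105 and Snorc with 910.04 ± 74.2. Ucma, Acan, Matn3, Hapln1 and Matn4 followed, at 371, 358, 324, 244 and 186 CPM per kilobase. Between libraries, the ranges of neighbours in this order were apart for Comp and Chad and for Snorc and Ucma, and overlapped for the others. Within a library, 8 of the 9 steps held in 5 of 5 libraries, and that from Ucma to Acan in 3. In PSC the order began with Cnmd, at 404 ± 143 CPM per kilobase, and Matn1, at 302 ± 156, the 73rd and 94th highest, and ended with Hapln1, at 42.6 ± 6.92. There the ranges of all neighbours overlapped, and 5 of the 9 steps held in 5 of 5 libraries. Acan itself, whose transcript is long, ranked 28th of 25239 genes by CPM in DDR2-plus and 82nd of 24321 per kilobase.

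The shares of single genes in the sum of the 10 are given as a description, with no test. Of the counts that fell on the 10 genes, Matn1 held 25.1% ± 0.939 in DDR2-plus and 14.0% ± 3.88 in PSC, and Matn4 held 4.24% ± 0.378 and 12.1% ± 0.758. Acan held 11.7% ± 0.525 and 14.0% ± 2.15, and Comp 19.5% ± 1.38 and 17.5% ± 1.36 (SD, n = 5 each). Matn1 and Matn4 were singled out after their values were seen.

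Aggrecan works through its chondroitin sulfate chains, which are built in the Golgi from UDP-sugars and activated sulfate. Of 18 genes of this synthesis, 8 rose, 1 fell and 9 did not pass, while 20.1% of all genes tested rose and 19.0% fell. Those that rose included Xylt1, the xylosyltransferase that begins each chain, 3.93-fold, Csgalnact1, which starts the chondroitin repeat, 3.73-fold, Slc26a2, the sulfate transporter, 2.87-fold, Papss2, which makes activated sulfate, 2.99-fold, and Ugdh, which makes UDP-glucuronate, 2.52-fold (edgeR adjusted p between 6.22e-07 and 8.55e-06). The polymerase gene Chpf was 1.26-fold lower (edgeR adjusted p = 0.00472). With library size in place of TMM it was no longer called (log2 fold change -0.06 against -0.33; edgeR adjusted p = 0.527, the highest of 18 settings, the lowest being 0.000485). The enzymes of the linkage region, B4galt7, B3galt6 and B3gat3, stood at 51.9, 19.8 and 61.3 CPM in DDR2-plus and 49.5, 17.2 and 62.2 CPM in PSC, without a call, though all 3 were called higher with library size in place of TMM (edgeR adjusted p between 0.0191 and 0.0289, against up to 0.987 over the 18 settings). Over the 18 the median log2 fold change was 0.13.

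Genes for proteases that cut aggrecan and other matrix proteins, with their inhibitor Timp3, gave the opposite count. Of 12, 0 rose, 8 fell and 4 did not pass by edgeR, with a list median of -0.73 on the log2 scale against 0.04 over all genes and 19.0% of all genes called lower. At an unadjusted p under 0.05 none of the 12 was higher either. By DESeq2 0 rose and 11 fell, and by limma-voom 0 rose and 10 fell. With library size in place of TMM 1, Adamts1, rose and 7 fell. The inhibitor Timp3 was itself among the 8 that fell by edgeR, at 261 ± 21.3 CPM in DDR2-plus against 382 ± 43.9 CPM in PSC (edgeR adjusted p = 0.000293). The balance of proteases and inhibitor was not tested. Adamts4 and Adamts5, the main aggrecanases, were at 27.4 ± 3.29 and 26.6 ± 4.38 CPM in DDR2-plus and 71.4 ± 6.26 and 48.0 ± 12.8 CPM in PSC (log2 fold changes -1.38 and -0.85; edgeR adjusted p = 8.90e-07 and 0.00236). Adamts8 was 4.36-fold and Adamts7, whose product cuts COMP, 2.93-fold lower (edgeR adjusted p of 3.25e-05 and 4.46e-05). Mmp14 was 1.42-fold lower (edgeR adjusted p = 6.69e-05). Mmp13, the collagenase of hypertrophic cartilage that also cuts aggrecan, had a log2 fold change of -0.40 without a call (edgeR adjusted p = 0.0521), and passed as lower in 7 of 18 alternative settings: DESeq2, limma-voom, the replicate block, replicates 1, 2 and 4 alone, and the fits without DDR2-plus 3, PSC 4 or PSC 5 (range of adjusted p 0.0109 to 0.524).

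**Figure D5:**
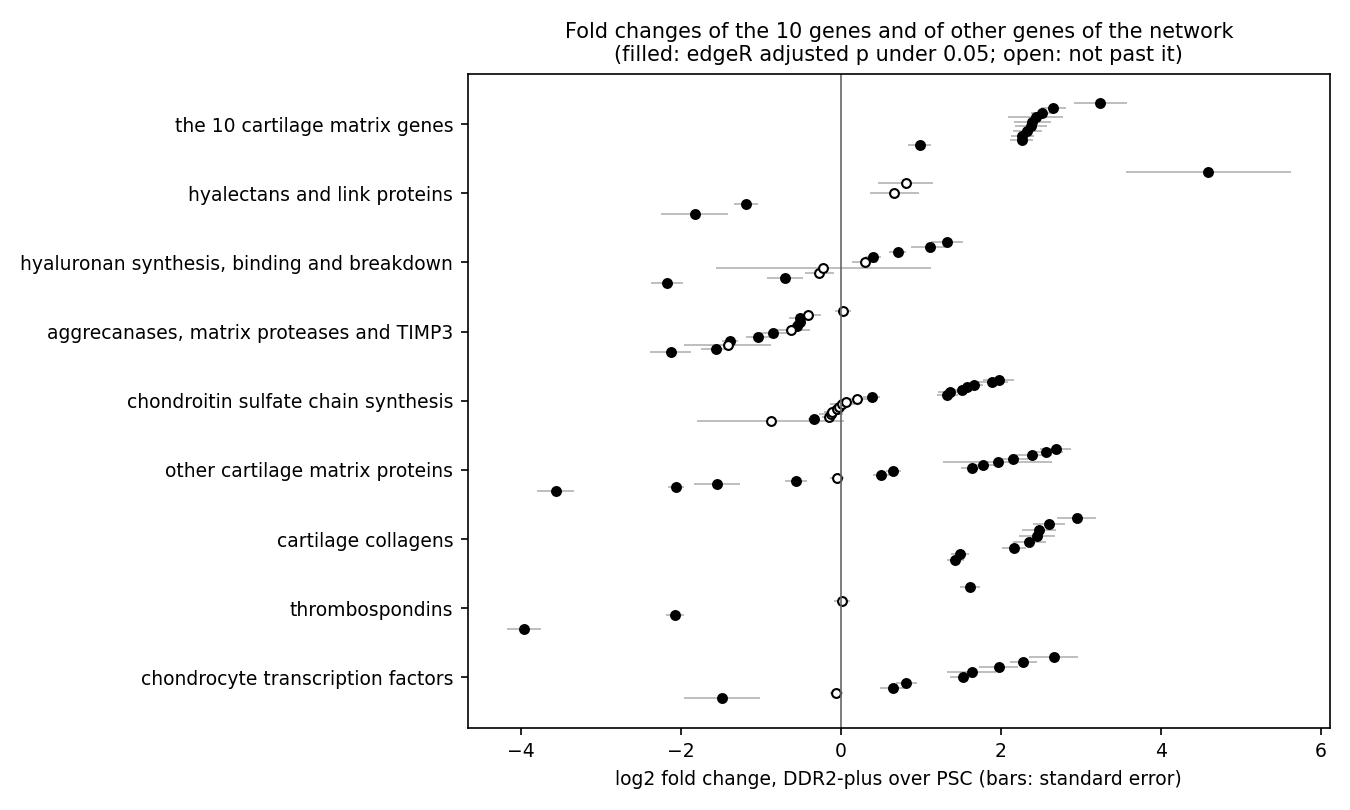
Log2 fold change of DDR2-plus over PSC for each tested gene of the 10 and of 8 lists of other genes of the network, with standard errors; filled points passed edgeR at an adjusted p under 0.05. The 10 genes lie between 0.99 and 3.25, the cartilage collagens between 1.43 and 2.95, and the aggrecanases and matrix proteases between -2.12 and 0.03.

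Other proteins of the cartilage matrix were divided. Of 15 genes, 14 were tested, 9 rose, 4 fell and 1 did not pass, and Lect2 had 0 counts in all libraries. Over all genes tested 20.1% rose and 19.0% fell. Clec3a, a C-type lectin of cartilage, was 6.45-fold higher, at 1225 ± 196 against 189.9 ± 50.0 CPM, and Mgp, the inhibitor of calcification, 3.12-fold higher, at 3809 ± 182 against 1221 ± 269.95 CPM (edgeR adjusted p of 2.29e-06 or less). Fmod, for fibromodulin, which is also on the tendon list, was 1.41-fold higher (edgeR adjusted p = 0.00139). Those that fell were Cilp, 11.8-fold, Cilp2, 4.17-fold, the lubricin gene Prg4, 2.92-fold, and Fibin, 1.47-fold (edgeR adjusted p of 0.00661 or less). That of Fibin was not called with library size in place of TMM (edgeR adjusted p = 0.0901) or with replicates 1, 2 and 4 alone (edgeR adjusted p = 0.0701), the lowest over 18 settings being 0.000390. Cilp is known from the middle zone of articular cartilage and from tendon, and Prg4 from joint surfaces.

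The collagens of cartilage, the other main part of its matrix, numbered 8, of which 8 rose, with a median log2 fold change of 2.40 beside 2.39 for the 10 genes here (edgeR adjusted p of 3.96e-06 or less). The largest difference was that of Col10a1 of hypertrophic cartilage, 7.74-fold, at 1862 ± 237 against 240.3 ± 107 CPM, and the smallest that of Col11a1, 2.70-fold. Col11a2 was 2.82-fold higher, at 9731 ± 1039 against 3451 ± 540.4 CPM. The count of Acan over that of Col2a1, the chain of type II collagen, was 0.0320 to 0.0339 in DDR2-plus and 0.0367 to 0.0578 in PSC, so that relative to type II collagen aggrecan was 1.30-fold lower in DDR2-plus (exact permutation test, two-sided p = 0.00794, adjusted p = 0.0139 over 7 ratios; n = 5 each). The ratio was nearly constant among DDR2-plus libraries, and PSC 3 held the highest PSC value. Of 9 transcription factor genes of chondrocytes, 7 rose, 1 fell and 1 did not pass. For these factors and the collagens alike, the shares over all genes tested were 20.1% higher and 19.0% lower. Sox9, which drives Acan and many of its partners, was at 1013 ± 130.1 and 208 ± 47.8 CPM, 4.87-fold higher (edgeR adjusted p = 9.51e-07), and Foxa3, known from hypertrophic chondrocytes, 6.33-fold higher (edgeR adjusted p = 2.27e-05). Barx1 was called lower at 0.742 and 2.08 CPM (edgeR adjusted p = 0.0263), a call that 7 of 18 alternative settings did not keep: the fits without DDR2-plus 2, DDR2-plus 3, DDR2-plus 4 or PSC 3, library size in place of TMM, the replicate block, and replicates 1, 2 and 4 alone (range of adjusted p 0.00435 to 0.267). Runx2, which acts in hypertrophy and in bone, was at 116 ± 6.93 and 121 ± 12.1 CPM without a call (edgeR adjusted p = 0.627). With library size in place of TMM its log2 fold change turned from -0.05 to 0.21 (edgeR adjusted p = 0.0394).

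The genes outside the list whose level most resembled Acan, Comp and Ucma were sought by the root-mean-square difference of log2(CPM + 1) over the 10 libraries, after centring each gene on its own mean, among 8866 genes. Nearest to Acan were Col27a1, a fibrillar collagen of cartilage, at 0.09, Tnfrsf21, a death receptor, at 0.13, and Fgfr3, a growth factor receptor of the growth plate, at 0.13, while the nearest of the 10 was Matn3 at 0.15. Nearest to Comp were Pcolce2 at 0.13, Col2a1 at 0.14 and Chadl at 0.17. Ucma had no neighbour as close, the nearest being Mia at 0.23, Col9a3 at 0.27 and Chadl at 0.29. Matn4, singled out after its values were seen, lay far from the rest of the 10. The nearest of them was Acan at 0.65, and 5091 genes outside the 10 lay nearer to Matn4 than that. Centring over both groups leaves the difference between them in this measure, and that of Matn4 was the smallest of the 10.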

How the data were processed

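Libraries were made from 1 ng of total RNA by full-length cDNA amplification and a Nextera XT kit, which does not mark strand, and sequenced as paired reads of 50 cycles, per the labels' protocols. The authors deposited whole-number counts per gene for 25239 genes, with no row of unassigned reads. Per the submitters' processing notes the build was mm10 and DESeq was used; a name for the aligner, the counter or the annotation is not given in the sources used here. Amplified reads are not independent molecules.

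The 10 genes and all lists were chosen with earlier results of these data known. Genes with low counts were removed with filterByExpr of edgeR (version 4.0.16, R 4.3.3), which all 10 passed and which left 15416 genes, and DDR2-plus was compared with PSC over 5 libraries each, without a block, by the quasi-likelihood test with TMM factors and Benjamini-Hochberg adjustment. CPM uses the same factors. Ratios of counts, after adding 0.5, were compared by exact permutation tests in scipy 1.17.1, adjusted over 7. Symbols were matched to GENCODE M21, 24321 of 25239 to a single gene, for positions and exon lengths. The length of a gene is that of the merged exons of all its annotated transcripts. It can exceed the length of the transcripts present, so levels and ranks per length depend on the annotation. No 2 libraries agreed within sampling noise. The fit was also run on simulated counts, with known changes in random directions in a small part of the genes. That setting does not test the choice of normalization, and its outcome is not given here.

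The genes named were the 10, those of each list with the largest called rise and fall or the highest level, up to 2 each, and the 3 nearest to Acan, Comp and Ucma. Col11a1, Adamts1, Adamts4, Adamts5, Hapln2, Hapln3, Matn2, Thbs3, Slc26a2, Papss2, Prg4, Fibin, Timp3 and the linkage region enzymes were added after their values were seen. Alternatives were library size or DESeq2 size factors for TMM, DESeq2 1.42.0 or limma-voom (limma 3.58.1) for edgeR, no filter or a stricter one (10 counts in 5 libraries), the library number as a block, replicates 1, 2 and 4 alone, each library left out, and 1 in place of 0.5 in the ratios.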

Additional observations from a re-analysis of the deposited data

Results flagged for a closer look

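Values of the named genes and ratios were searched for a library set far apart from the other 4 of its group, by Dixon's test at a critical ratio of 0.71, in 146 groups of 5. Chance gives about 1 such library in 20 groups, and 7 were found. The count of Acan over that of Col2a1 was 0.0578 in PSC 3, and the next highest PSC value was 0.0418. Ncan was at 1.01 CPM in PSC 2 and at most 0.0996 CPM in the other PSC libraries. Xylt1 was at 28.7 CPM in PSC 4, the next highest being 19.1 CPM. Csgalnact1 was at 124 CPM in DDR2-plus 3, the lowest of its group, with the next at 181 CPM. Hapln2 was at 1.79 CPM in DDR2-plus 1, the next highest being 0.117 CPM. Slc26a2 was at 39.3 CPM in PSC 5, the next lowest being 53.7 CPM, and Ddr2 at 134 CPM in PSC 1, the next lowest being 153 CPM.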

How the results depend on the processing

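All 10 genes were called higher, and 0 lower, in each of 18 alternative fits. Each of the 7 ratios kept its direction and its side of the threshold in 11 settings. These settings left out each library in turn or added a larger value to the counts. Comp to Acan, Matn1 to Matn3, Acan to Col2a1 and Acan to Vcan had no overlap between the groups. Leaving out a library keeps such ratios at the lowest possible p, so it could not end their calls (exact permutation test, two-sided p = 0.0159). The ratios were not tested with replicates 1, 2 and 4 alone. With library size in place of TMM the median log2 fold change of all genes moved from 0.04 to 0.31, and the calls moved from 3096 higher and 2926 lower to 5421 higher and 1538 lower, so that the share of higher calls went from 51.4% to 77.9%. The 10 genes then lay between 1.26 and 3.52 on the log2 scale, against 0.99 to 3.25. No call was made for the genes whose direction turned, apart from those with library size given beside them in the results. With library size the log2 fold change of Runx2 turned to 0.21, that of Matn2 to 0.22 and that of B3gat3 to 0.25, and with replicates 1, 2 and 4 that of B3galt6 to -0.0609 and that of B3gat3 to 0.0339. With 1 library left out the range was -0.0967 to 0.000734 for Runx2, -0.116 to 0.00333 for Matn2, -0.0447 to 0.0624 for Thbs3, -0.00519 to 0.132 for B4galt7, -0.0728 to 0.0207 for B3gat3 and -0.0437 to 0.0705 for Adamts1.

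Some list counts moved by more than 1.5 times. With library size, higher hyalectan and link genes went from 1 to 3, higher proteases from 0 to 1, higher thrombospondins from 1 to 2, lower hyaluronan genes from 2 to 1, and lower genes of chondroitin sulfate synthesis and lower transcription factors from 1 to 0. DESeq2, limma-voom and the fit without DDR2-plus 2 each gave 2 higher hyalectan and link genes. The fit without PSC 5 and that with replicates 1, 2 and 4 gave 2 lower genes of chondroitin sulfate synthesis. Lower hyaluronan genes and lower transcription factors moved with Has1 and Barx1, their least certain calls. Lower pineal markers went from 0 to 1 with DESeq2, with limma-voom and without DDR2-plus 3 or PSC 2. Lower endothelial markers went from 2 to 1 in 13 of 18 settings. Higher blood and immune markers went from 1 to 0 or 2 in 9 of 18. The limma-voom counts of glia and olfactory markers, 4 and 1, and the DESeq2 count of olfactory markers, 3, stand against 7 and 5 by edgeR.

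With the library number as a replicate block, 3054 genes were higher and 2688 lower, and 10 of the 10 genes were higher. The correlation of same-numbered libraries, as deviations from their group means, was 0.00119 to 0.108, with 1 pair over 0.1, and 6 of 10 libraries correlated best with their own number, a hint from the data. The titles give same-numbered libraries of both groups a shared stem, but the labels do not say that a number marks a shared animal or day. As not every pair was over 0.1 either, the libraries were not treated as paired. The ratios were tested unpaired only, and their calls rest on that choice. The lowest count of the 10 genes in a library was 795. Hapln2, with 109 counts over all DDR2-plus libraries, did not pass the filter on low counts.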
